A study of Mus musculus with 6 samples.

Results

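The metalloproteinases and their inhibitors were taken as every gene of the deposited table whose symbol begins with *Mmp*, *Timp*, *Adam*, *Adamts* or *Adamtsl* followed by a number. This rule found 85 of 41709 genes: 4 *Timp*, 23 *Mmp*, 34 *Adam*, 19 *Adamts* and 5 *Adamtsl* genes. They were measured by RNA-seq in 6 tibialis anterior (TA) muscles of male C57BL/6J mice, 14 days after DNA plasmids were electroporated into them. In 3 muscles the plasmid encoded Flag-tagged wild-type mouse Lrpprc (LrpprcWT), and in the other 3 it encoded LrpprcP27A, in which alanine replaces proline 27, a residue that is dihydroxylated in the wild-type protein. Both plasmids used the CMV promoter, and the study placed them in the contralateral TA muscles of the same mice. A second fit therefore treated same-numbered libraries as pairs, although the labels do not state that the number is the mouse. The study used young and old mice, and the age of those used for RNA-seq is not stated in the sources used here. No mock-electroporated library was analysed here, and each library was made from whole muscle, which holds electroporated and other cells alike.

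The matrix metalloproteinases (Mmps) are zinc-dependent enzymes that cut collagens and other proteins of the extracellular matrix, either after secretion or at the cell surface. The Adams are membrane-anchored relatives, several of which release growth factors, cytokines and receptors from the cell surface, whereas the Adamts enzymes are secreted and trim proteoglycans and procollagens. The tissue inhibitors of metalloproteinases (Timps) bind the active site of these enzymes and hold them in check. In skeletal muscle these proteins remodel the matrix around myofibres, and many of them are made by fibroblasts, endothelial cells and immune cells rather than by the myofibres.

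Values are TPM, the share of a gene among the transcripts of a library after correction for length, so they can be set side by side between genes, but the number of reads is unknown. Each library summed to 1000000 TPM, and genes encoded by the mitochondrial genome held 40.8%, 45.2% and 36.0% of it in LrpprcWT replicates 1, 2 and 3 and 44.2% to 46.1% with LrpprcP27A. The ribosomal RNA gene *Rn18s-rs5* was at 8874 to 17614 TPM with LrpprcWT and 37023 to 44435 TPM with LrpprcP27A. *Lrpprc*, for which TPM do not separate the plasmid from the mouse gene, was at 35.1, 37.0 and 75.2 TPM with LrpprcWT and at 26.9, 29.7 and 26.0 TPM with LrpprcP27A. The comparison used limma on log2(TPM + 1) over the 11611 genes whose mean TPM reached 1, and a gene was called at a Benjamini-Hochberg adjusted p under 0.05 over all of them. Fold changes are log2 differences of TPM + 1, LrpprcP27A minus LrpprcWT, and they understate the change of low genes. Over all genes tested 87.99% of the log2 fold changes were negative, with a median of -0.32, and median-of-ratios scaling, which sets the typical gene to no change, moved this median to -0.0047. LrpprcWT replicate 2 stood apart from the other LrpprcWT libraries. It was the lowest LrpprcWT library for 32 of the 37 members tested, and for 9379 of all 11611 genes tested. LrpprcP27A replicate 1 was the highest LrpprcP27A library for 27 of the 37, and for 4771 of the 11611.

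Many metalloproteinase mRNAs, and 2 of the 4 inhibitor mRNAs, were lower with LrpprcP27A than with LrpprcWT. The 85 genes together held 645.4, 381.2 and 545.5 TPM in the LrpprcWT muscles and 337.1, 234.1 and 293.9 TPM in the LrpprcP27A muscles, and the groups did not overlap. Of the 85 genes, 18 were listed at 0 in every library, 57 were above 0 in all 6, and 37 passed the filter and were tested. Of these 37, 22 were lower and 0 were higher in limma, and 0 were higher at an unadjusted p under 0.05, against 23.3% of all tested genes that were lower and 1.34% that were higher. The median log2 fold change of the 37 was -0.76, and 32 of the 37 lay below the median of all genes. In 24 of the 37 every LrpprcP27A muscle was below every LrpprcWT muscle, and in 0 was every one above, where 47.6% and 3.51% of all tested genes did so. Members that passed the filter only through high LrpprcWT values had to differ, so the 27 members with a mean of at least 1 TPM in each group were also counted, and 17 of these were lower. The share of all genes under this stricter filter was not computed, so this count has no background.

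With the replicate block 31 of the 37 were lower and 1, *Timp4*, was higher, where the block called 48.4% of all genes lower and 2.69% higher. With median-of-ratios scaling 12 were lower and 1, *Adam9*, was higher, against 6.03% and 5.25% of all genes, and the median of the 37 was -0.49. With both the block and this scaling 23 were lower and 2 higher, *Timp4* and *Adam9*, against 15.8% and 13.4%. The number of calls rested on single libraries. Without LrpprcWT replicate 3 no member was called (24 were lower at an unadjusted p under 0.05 in limma), and 0.129% of all genes were called lower. Without LrpprcWT replicate 1 only *Mmp2*, *Adamts4* and *Adamts20* were lower, and 2.51% of all genes. Without LrpprcP27A replicates 2 or 3 the numbers were 8 and 8 (4.34% and 3.79% of all genes), and without LrpprcP27A replicate 1 the number was 19 (14.5%). Without LrpprcWT replicate 2, the library that stood apart, 31 were lower and *Adamts8* was higher, while 59.5% of all genes were lower.

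**Figure D1:**
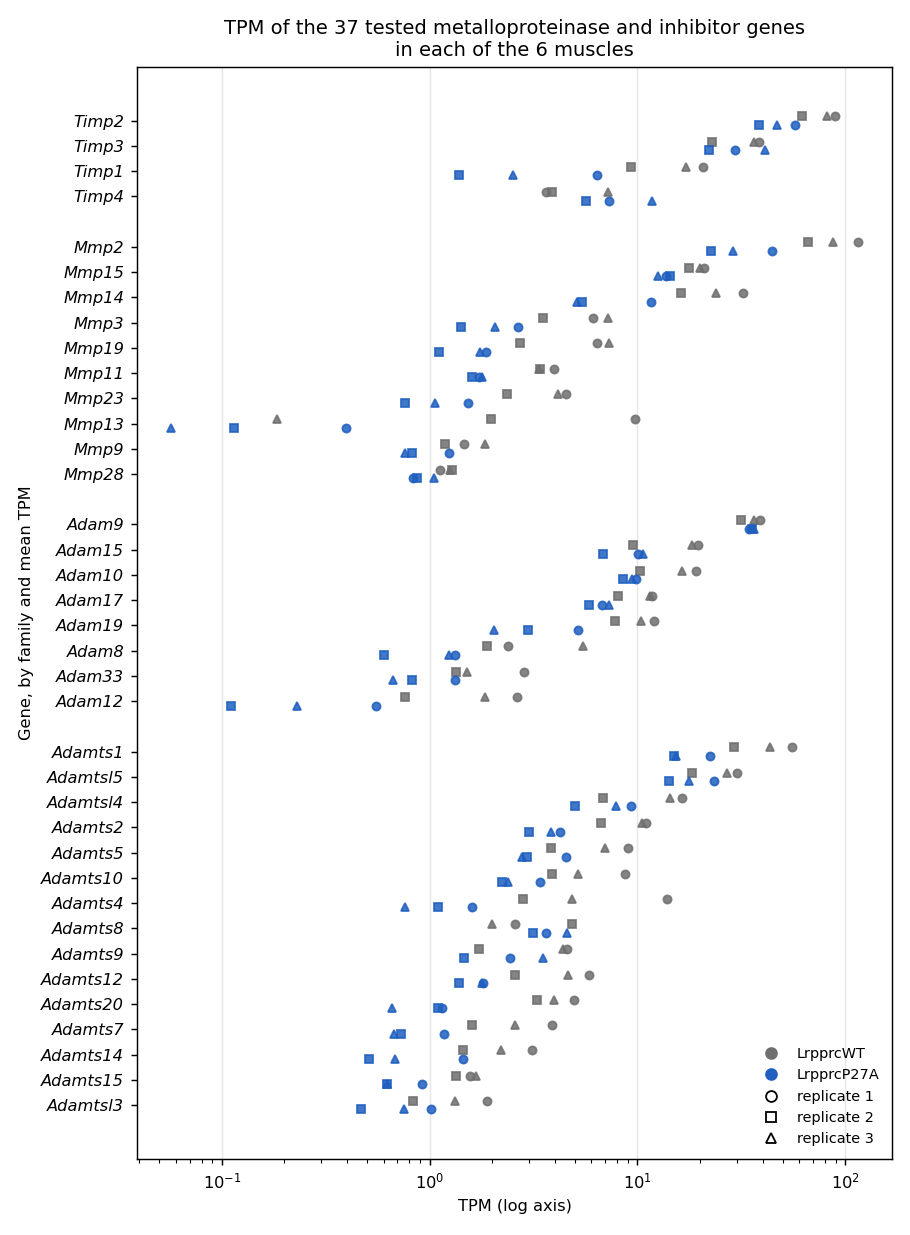
TPM (log axis) of the 37 tested genes, by family and mean level, in each of the 6 muscles (grey, LrpprcWT; blue, LrpprcP27A; marker shape, replicate). The LrpprcP27A points lie to the left of all LrpprcWT points for 24 of the 37 genes. The groups overlap for all the others, which include *Timp3*, *Adam9* and *Adamts8* but also *Mmp13*, *Adam15* and *Adamts5*.

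Markers of some other cells were lower with LrpprcP27A, to be read against the 23.3% of all tested genes called lower. All 6 macrophage markers were lower with LrpprcP27A, and their summed level was 224.6 to 416.3 TPM with LrpprcWT and 75.8 to 140.7 TPM with LrpprcP27A. For fibro-adipogenic progenitors or fibroblasts 5 of 6 markers were lower (274.7 to 460.1 TPM against 148.1 to 223.2 TPM), one of which, *Dcn*, is also a substrate listed below. For satellite cells 3 of 5 tested were lower (64.7 to 110.6 TPM against 26.1 to 36.5 TPM). For endothelial cells 2 of 6 were lower (164.2 to 297.9 TPM against 122.1 to 168.0 TPM), and *Cdh5*, 1 of these 2, is also among the substrates. Of the pericyte or smooth muscle markers 2 of 6 were lower (267.8 to 385.3 TPM against 209.9 to 290.6 TPM), and of the tenocyte markers 1 of 5 tested (94.5 to 170.6 TPM against 44.1 to 125.6 TPM). No neutrophil marker of 4 tested was called (35.2 to 57.1 TPM against 25.4 to 41.3 TPM), and the defining neutrophil gene *Ly6g* was listed at 0 in every LrpprcWT library. No Schwann cell marker of 3 tested was called (20.8 to 40.8 TPM against 18.3 to 37.5 TPM). The myofibre markers, which check the labelled tissue, held 107300 to 116000 TPM with LrpprcWT and 96970 to 107400 TPM with LrpprcP27A, and 1 of the 6, *Mylpf*, was lower. With median-of-ratios scaling 3 macrophage, 2 fibroblast and 2 satellite cell markers were lower, against 6.03% of all tested genes. Of the markers of the other 6 cell types 0 were lower. The part of these cells in the results was not tested, and in whole muscle fewer cells of a type and less RNA per cell cannot be told apart.

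**Figure D2:**
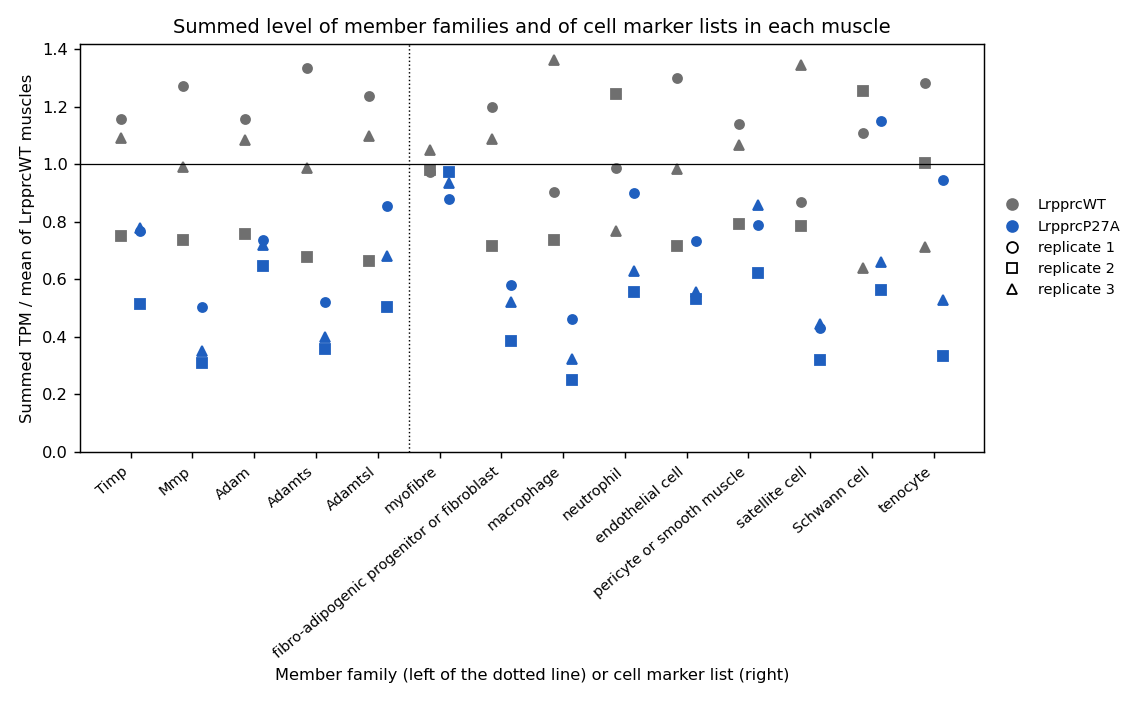
Summed TPM of each member family and of each list of cell markers in each muscle, divided by the mean of the 3 LrpprcWT muscles (grey, LrpprcWT; blue, LrpprcP27A; marker shape, replicate). The *Mmp*, *Adam* and *Adamts* families and the macrophage, fibroblast and satellite cell lists do not overlap between the groups, whereas the *Timp* and *Adamtsl* families and the myofibre list do.

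The 4 inhibitors did not move together. *Timp1* and *Timp2* were lower with LrpprcP27A, *Timp3* was not called, and *Timp4* was the 1 member with a higher value in all 3 pairs. *Timp1* (chromosome X of GRCm39, 20736316 to 20740976), a secreted inhibitor of many Mmps that is induced in injured and inflamed tissue, had 20.7, 9.27 and 17.1 TPM with LrpprcWT and 6.39, 1.38 and 2.52 TPM with LrpprcP27A. All LrpprcP27A muscles were below all LrpprcWT muscles, and the log2 fold change of -2.01 ± 0.41 (SE; adjusted p = 0.0195 in limma) was the most negative of the 37 tested members on this scale, though not of their TPM ratios. Median-of-ratios scaling changed it to -1.70 (adjusted p = 0.0427 in limma).

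*Timp2* (chromosome 11, 118191887 to 118246566), which inhibits Mmp2 and also presents its inactive form to the membrane enzyme Mmp14, was the most abundant inhibitor. It had 88.8, 62.2 and 82.1 TPM with LrpprcWT and 57.3, 38.3 and 46.7 TPM with LrpprcP27A, again without overlap (log2 fold change -0.70 ± 0.18, adjusted p = 0.0298 in limma). With median-of-ratios scaling the fold change was -0.34 and the call was lost (adjusted p = 0.129 in limma). *Timp3* (chromosome 10, 86136236 to 86185371), which stays bound to the matrix and inhibits Adam17 and Adamts enzymes as well as Mmps, had 38.4, 22.8 and 36.5 TPM with LrpprcWT. It had 29.6, 22.0 and 41.1 TPM with LrpprcP27A, so that the groups overlapped (log2 fold change -0.08 ± 0.25, adjusted p = 0.799 in limma). Under median-of-ratios scaling its sign turned to 0.28 (adjusted p = 0.367 in limma).

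*Timp4* (chromosome 6, 115187773 to 115229336), an inhibitor with high expression in heart and skeletal muscle, had 3.62, 3.89 and 7.20 TPM with LrpprcWT and 7.31, 5.65 and 11.7 TPM with LrpprcP27A. LrpprcWT replicate 3 lay within the LrpprcP27A range, although each LrpprcP27A muscle was above its own pair. The log2 fold change of 0.64 ± 0.28 did not pass the unpaired test (adjusted p = 0.108 in limma), passed with the replicate block (adjusted p = 0.000844) and was 0.96 with median-of-ratios scaling (adjusted p = 0.0578 without the block and 0.00827 with it). As a share of all *Timp* transcripts, which does not depend on scaling, *Timp1* made up 9.45% to 13.6% with LrpprcWT and 2.05% to 6.35% with LrpprcP27A. The shares of *Timp3* and *Timp4* were higher with LrpprcP27A, from 23.2% to 25.5% against 29.4% to 40.3% for *Timp3*, and from 2.39% to 5.04% against 7.27% to 11.5% for *Timp4*. *Timp2* held 57.5% to 63.4% and 45.8% to 56.9%. None of these shares overlapped between the groups. *Timp1*, *Timp3* and *Timp4* each lie within a synapsin gene on the opposite strand (*Syn1*, *Syn3* and *Syn2*). The kit does not mark strand, but these host genes had means of only 0.235, 0.0358 and 1.01 TPM.

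**Figure D3:**
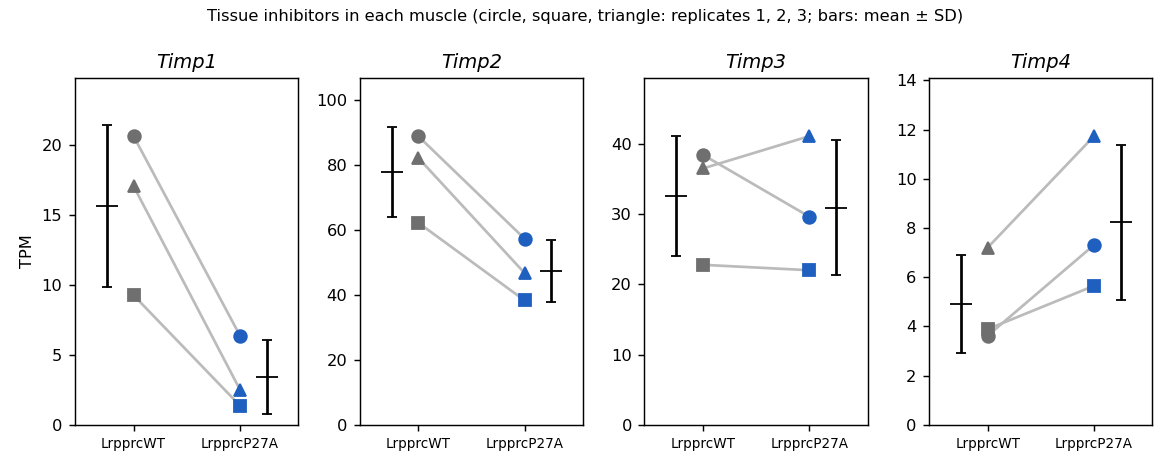
TPM of the 4 tissue inhibitors in each muscle, with lines joining libraries of the same replicate number and black bars for the mean ± SD of the 3 muscles of a group. *Timp1* and *Timp2* are lower with LrpprcP27A in all 3 pairs, *Timp4* is higher in all 3, and *Timp3* is lower in 2 of 3.

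The promoters of *Timp1* and *Timp3* are shown because these inhibitors differed in their response. RefSeq sequences of GRCm38.p6 were available for 25 of the 37 tested members (28 promoters), each with 250 bases before and 50 bases after a transcript start. Capitals mark GGGCGG or its reverse complement CCGCCC, the core letters of a GC box, which begin 8 bases before the start of *Timp1*, and 15 bases before and at base 13 after the start of *Timp3*.
Timp1 (chrX:20869916-20870215, + strand): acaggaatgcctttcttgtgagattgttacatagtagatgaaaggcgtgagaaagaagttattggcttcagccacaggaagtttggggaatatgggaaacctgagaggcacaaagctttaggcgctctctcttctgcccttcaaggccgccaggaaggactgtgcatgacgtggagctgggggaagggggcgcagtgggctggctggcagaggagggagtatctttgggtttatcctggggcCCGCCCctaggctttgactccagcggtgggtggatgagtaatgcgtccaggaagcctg
Timp3 (chr10:86300162-86300461, + strand): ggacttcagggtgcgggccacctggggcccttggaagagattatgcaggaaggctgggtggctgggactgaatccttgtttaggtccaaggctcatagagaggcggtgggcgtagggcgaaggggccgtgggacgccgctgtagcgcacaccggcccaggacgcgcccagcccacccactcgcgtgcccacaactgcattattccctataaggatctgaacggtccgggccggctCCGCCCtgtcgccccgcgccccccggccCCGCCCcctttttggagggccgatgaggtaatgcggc
GGGCGG on either strand was present in 21 of the 28 member promoters (75.0%) and in 35.66% of 32851 promoters of all genes. The member promoters belong only to genes that passed the filter, whereas those of all genes include genes outside it, so these sets are unlike. The letters were found in both the inhibitor that fell and the one that did not.

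Of the 23 *Mmp* genes 10 were tested, 7 of which were lower and 0 higher, against 23.3% and 1.34% of all tested genes. Their median log2 fold change was -1.11, and all 10 were lower in all 3 pairs, as were 8137 of the 11611 genes tested. With the block 8 were lower (48.4% of all genes), and with median-of-ratios scaling 6 (6.03% of all genes). The family held 204.0, 118.1 and 158.7 TPM with LrpprcWT and 80.8, 49.5 and 56.2 TPM with LrpprcP27A. The gelatinase *Mmp2* (chromosome 8, 93553902 to 93580049), which cleaves denatured collagen and basement membrane collagen, made up 54.7% to 56.5% of the family sum with LrpprcWT and 45.4% to 54.6% with LrpprcP27A. It had 115.3, 66.5 and 86.8 TPM with LrpprcWT and 44.2, 22.5 and 28.9 TPM with LrpprcP27A. The groups did not overlap, and the log2 fold change was -1.48 ± 0.26 (adjusted p = 0.0154 in limma, and 0.0345 with median-of-ratios scaling).

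*Mmp14* (chromosome 14, 54668878 to 54682821), the membrane-bound enzyme that cleaves fibrillar collagen and activates Mmp2, had 32.3, 16.1 and 23.9 TPM with LrpprcWT and 11.6, 5.42 and 5.14 TPM with LrpprcP27A. The groups did not overlap, and the log2 fold change was -1.62 ± 0.31 (adjusted p = 0.0175 in limma, and 0.0406 with median-of-ratios scaling). Its relative *Mmp15* had 20.8, 17.6 and 19.9 TPM with LrpprcWT and 13.7, 14.3 and 12.6 TPM with LrpprcP27A. The difference was smaller although the groups did not overlap (log2 fold change -0.49 ± 0.12, adjusted p = 0.0279 in limma), and it was lost with median-of-ratios scaling (-0.14, adjusted p = 0.338). *Mmp15* therefore took a larger share of the *Mmp* transcripts with LrpprcP27A, at 16.9% to 28.9% against 10.2% to 14.9%. *Mmp23*, the other membrane-bound member tested, was lower as well (log2 fold change -1.13, adjusted p = 0.0182 in limma).

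Both stromelysins tested were lower. *Mmp3*, which cleaves matrix proteins and activates other Mmps, had 6.08, 3.50 and 7.24 TPM with LrpprcWT and 2.68, 1.42 and 2.06 TPM with LrpprcP27A (log2 fold change -1.09 ± 0.25, adjusted p = 0.0246 in limma, and 0.0438 with median-of-ratios scaling). *Mmp11*, which is activated within the cell by furin, fell by 0.76 on the log2 scale (adjusted p = 0.0160 in limma), but it shares 155 exonic bases with the opposite-strand gene *Chchd10*, which had a mean of 612.9 TPM, and reads of the 2 genes cannot be told apart there. *Mmp19*, a secreted enzyme that cuts basement membrane proteins, had 6.41, 2.71 and 7.30 TPM with LrpprcWT and 1.88, 1.11 and 1.74 TPM with LrpprcP27A (log2 fold change -1.26 ± 0.29, adjusted p = 0.0249 in limma, and 0.0435 with median-of-ratios scaling). It lies within the opposite-strand gene *Tmem198b*, with 1084 shared exonic bases and a mean of 3.91 TPM for that gene, so that reads of both cannot be told apart there.

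The collagenase *Mmp13* differed widely between the muscles of one group. It had 9.70, 1.97 and 0.184 TPM with LrpprcWT and 0.394, 0.114 and 0.0571 TPM with LrpprcP27A, so that LrpprcWT replicate 3 was below LrpprcP27A replicate 1. The log2 fold change of -1.51 ± 0.64 did not pass the unpaired test (adjusted p = 0.0990 in limma) and passed with the block (adjusted p = 0.000551 in limma). Each LrpprcP27A muscle was below its own pair, but by very unlike amounts. The p with the block does not by itself measure how well the 3 pairs agreed. With both the block and median-of-ratios scaling the call was lost (adjusted p = 0.0668), and without LrpprcWT replicate 1 the fold change was -0.67. The gelatinase *Mmp9*, a product of macrophages and neutrophils, had 1.46, 1.19 and 1.85 TPM with LrpprcWT and 1.23, 0.821 and 0.762 TPM with LrpprcP27A (log2 fold change -0.37 ± 0.16, adjusted p = 0.109 in limma). *Mmp28* was near 1 TPM in every muscle and was not called (log2 fold change -0.21 ± 0.13, adjusted p = 0.215 in limma). Of the 13 *Mmp* genes not tested, 3 were listed at 0 in every library, and none reached 1 TPM in any library.

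*Mmp3* and *Mmp13* lie in the same gene cluster on chromosome 9, and their promoters are shown with 1 of the 3 promoters of *Adam19* because these hold the letters TGANTCA, the core of an AP-1 site. Capitals mark these letters, the TATA box letters TATAAA and, in *Adam19*, the GC box core, on either strand, and the marked letters do not overlap. TGANTCA begins 46 bases before the start of *Mmp3*, 35 before that of *Mmp13* and 131 before this start of *Adam19*, whose other 2 promoters held none of the 3 motifs, and TATAAA begins 7 and 16 bases before the starts of *Mmp3* and *Mmp13*.
Mmp3 (chr9:7445572-7445871, + strand): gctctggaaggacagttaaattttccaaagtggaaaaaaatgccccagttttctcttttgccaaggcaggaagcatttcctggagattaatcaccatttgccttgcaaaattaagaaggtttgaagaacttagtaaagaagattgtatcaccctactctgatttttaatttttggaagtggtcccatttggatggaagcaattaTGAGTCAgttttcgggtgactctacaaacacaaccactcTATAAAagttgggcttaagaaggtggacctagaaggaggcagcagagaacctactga
Mmp13 (chr9:7272264-7272563, + strand): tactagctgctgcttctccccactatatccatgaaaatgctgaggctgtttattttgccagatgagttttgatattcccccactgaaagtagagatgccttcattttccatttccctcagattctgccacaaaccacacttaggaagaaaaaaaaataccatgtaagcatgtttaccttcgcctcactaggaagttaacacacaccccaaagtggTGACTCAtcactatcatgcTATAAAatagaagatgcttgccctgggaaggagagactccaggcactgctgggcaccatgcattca
Adam19 (chr11:46055734-46056033, + strand): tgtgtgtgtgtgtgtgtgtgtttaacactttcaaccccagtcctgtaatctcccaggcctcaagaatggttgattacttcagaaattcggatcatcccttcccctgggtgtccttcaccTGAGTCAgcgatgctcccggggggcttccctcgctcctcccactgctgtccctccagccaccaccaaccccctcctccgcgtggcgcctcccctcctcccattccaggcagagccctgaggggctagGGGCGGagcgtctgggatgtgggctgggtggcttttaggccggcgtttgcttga
TGANTCA was found in 3 of the 28 member promoters (10.7%) and in 7.81% of all promoters. TATAAA was found in 3 of 28 (*Mmp3*, *Mmp13* and *Adamts1*) and in 13.6% of all, and here too the sets are unlike. *Mmp2*, *Mmp9*, *Mmp19* and *Adam9* were among the 12 tested members without a matched promoter.

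All 8 *Adam* genes tested belong to the 9 sheddases or their close relatives. Of these 8, 4 were lower and 0 higher, with a median log2 fold change of -0.65, against 23.3% and 1.34% of all tested genes. With the block 7 were lower (48.4% of all genes), and with median-of-ratios scaling 1 was lower and 1 higher (6.03% and 5.25%). *Adam9* (chromosome 8, 25439626 to 25507096), which is found in most tissues, was the most abundant, and its group means differed little on the deposited scale. It had 38.8, 31.6 and 36.5 TPM with LrpprcWT and 34.3, 35.5 and 36.6 TPM with LrpprcP27A (log2 fold change -0.0031 ± 0.11, adjusted p = 0.984 in limma). Median-of-ratios scaling made it higher with LrpprcP27A (log2 fold change 0.36, adjusted p = 0.0384 in limma), and its share of all *Adam* transcripts was 34.4% to 43.1% with LrpprcWT and 48.0% to 56.5% with LrpprcP27A. It shares 396 exonic bases with the opposite-strand gene *Tm2d2* (mean 29.9 TPM), where reads cannot be told apart.

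*Adam10* and *Adam17* are the main sheddases of Notch receptors and of tumour necrosis factor. *Adam10* had 19.1, 10.3 and 16.4 TPM with LrpprcWT and 9.81, 8.52 and 9.39 TPM with LrpprcP27A. The groups did not overlap, but the difference missed the threshold (log2 fold change -0.63 ± 0.21, adjusted p = 0.0534 in limma) and passed with the block (adjusted p = 0.00143). With median-of-ratios scaling the fold change was -0.28, and the call was lost with the block too (adjusted p = 0.0788). *Adam17* had 11.8, 8.10 and 11.4 TPM with LrpprcWT and 6.73, 5.83 and 7.28 TPM with LrpprcP27A, and it was called lower (log2 fold change -0.58 ± 0.17, adjusted p = 0.0401 in limma, and 0.125 with median-of-ratios scaling). It shares 341 exonic bases with the opposite-strand gene *Iah1* (mean 2.605 TPM), where reads cannot be told apart. *Adam15* overlapped between the groups (log2 fold change -0.68 ± 0.27, adjusted p = 0.0815 in limma, and 0.000446 with the block).

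*Adam19* was lower as well. It is also called meltrin beta, a sheddase of neuregulins. It had 12.1, 7.83 and 10.4 TPM with LrpprcWT and 5.20, 2.99 and 2.05 TPM with LrpprcP27A, without overlap (log2 fold change -1.38 ± 0.26, adjusted p = 0.0168 in limma, and 0.0410 with median-of-ratios scaling). *Adam12*, or meltrin alpha, which is found in regenerating muscle, was low throughout, with 2.65, 0.765 and 1.85 TPM with LrpprcWT and 0.551, 0.111 and 0.231 TPM with LrpprcP27A (log2 fold change -1.04 ± 0.26, adjusted p = 0.0290 in limma, and 0.0540 with median-of-ratios scaling). *Adam8*, a gene of leukocytes, fell by 0.97 on the log2 scale (adjusted p = 0.0440 in limma, and 0.103 with median-of-ratios scaling). Of the other 26 *Adam* genes, 15 were listed at 0 in every library, most of them genes of the testis, and *Adam1a* was the only one to reach 1 TPM in any library (1.26 TPM in LrpprcWT replicate 1). The 3 neuronal Adams without catalytic activity, *Adam11*, *Adam22* and *Adam23*, were above 0 in every library but below the filter.

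Of the 19 *Adamts* genes 12 were tested, and 9 were lower and 0 higher, against 23.3% and 1.34% of all tested genes. Their median log2 fold change was -0.91. With the block 11 were lower (48.4% of all genes), and with median-of-ratios scaling 4 (6.03% of all genes). The family held 127.0, 64.5 and 93.9 TPM with LrpprcWT and 49.5, 34.0 and 38.1 TPM with LrpprcP27A. *Adamts1* (chromosome 16, 85590579 to 85600009), which cleaves versican and aggrecan, made up 43.5% to 46.0% of this sum with LrpprcWT and 40.1% to 44.9% with LrpprcP27A. It had 55.2, 29.1 and 43.2 TPM with LrpprcWT and 22.2, 15.1 and 15.3 TPM with LrpprcP27A (log2 fold change -1.21 ± 0.24, adjusted p = 0.0176 in limma, and 0.0383 with median-of-ratios scaling).

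Of the 7 proteoglycan-cleaving members, *Adamts1* included, 4 were lower, against 23.3% of all tested genes. *Adamts4*, or aggrecanase-1, had 13.8, 2.83 and 4.87 TPM with LrpprcWT and 1.61, 1.10 and 0.761 TPM with LrpprcP27A. Its log2 fold change was the most negative of the *Adamts* genes on this scale (-1.70 ± 0.42, adjusted p = 0.0286 in limma, and 0.0607 with median-of-ratios scaling), with LrpprcWT replicate 1 far above the rest. Its value is uncertain, since counts without strand can include reads of an overlapping gene. *Adamts5*, or aggrecanase-2, overlapped between the groups (9.04, 3.83 and 6.99 TPM against 4.51, 2.95 and 2.78 TPM), and its log2 fold change of -0.75 ± 0.27 did not pass the unpaired test (adjusted p = 0.0680 in limma). It passed with the block (adjusted p = 0.000685) and without LrpprcWT replicate 2 (adjusted p = 0.00643 in limma).

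*Adamts20*, a versican-cleaving enzyme, is named here after its values were seen, because it had the lowest adjusted p of the 37. It had 4.93, 3.30 and 3.98 TPM with LrpprcWT and 1.14, 1.09 and 0.661 TPM with LrpprcP27A (log2 fold change -1.36 ± 0.17, adjusted p = 0.0101 in limma, and 0.0211 with median-of-ratios scaling). *Adamts8* was 1 of only 2 members, with *Timp4*, whose fold change was above 0. It had 2.57, 4.83 and 2.00 TPM with LrpprcWT and 3.61, 3.15 and 4.58 TPM with LrpprcP27A, which overlapped (log2 fold change 0.26 ± 0.25, adjusted p = 0.403 in limma).

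Both procollagen N-proteinases tested, which remove the amino-terminal propeptide of fibrillar procollagens, were lower. *Adamts2* had 11.0, 6.65 and 10.5 TPM with LrpprcWT and 4.22, 2.99 and 3.85 TPM with LrpprcP27A, without overlap (log2 fold change -1.13 ± 0.20, adjusted p = 0.0160 in limma, and 0.0259 with median-of-ratios scaling). *Adamts14* fell by 0.79 on the log2 scale (adjusted p = 0.0449 in limma, and 0.117 with median-of-ratios scaling). Its groups overlapped, with LrpprcWT replicate 2 at 1.441 TPM and LrpprcP27A replicate 1 at 1.449 TPM. The other 3 tested, *Adamts7*, *Adamts10* and *Adamts12*, were each lower, with log2 fold changes of -0.95, -0.87 and -0.96 (adjusted p = 0.0271, 0.0396 and 0.0271 in limma). With median-of-ratios scaling *Adamts12* was still called (adjusted p = 0.0480), and *Adamts7* and *Adamts10* were not (0.0533 and 0.108). The Adamts-like proteins resemble these enzymes but lack the protease domain. None of the 3 tested was called without the block, and all 3 were with it, where it called 48.4% of all genes lower. With both the block and median-of-ratios scaling, which called 15.8% of all genes lower, only *Adamtsl4* was called. Its adjusted p in limma was 0.0304, against 0.503 for *Adamtsl5* and 0.143 for *Adamtsl3*. *Adamtsl5* had 30.3, 18.4 and 26.9 TPM with LrpprcWT and 23.3, 14.2 and 17.7 TPM with LrpprcP27A (log2 fold change -0.43 ± 0.22, adjusted p = 0.145 in limma, and 0.00805 with the block), and median-of-ratios scaling moved the fold change to -0.075. *Adamtsl4* had 16.4, 6.82 and 14.3 TPM with LrpprcWT and 9.34, 4.99 and 7.89 TPM with LrpprcP27A (log2 fold change -0.64 ± 0.31, adjusted p = 0.134 in limma, and 0.000793 with the block). Among the members that were not tested, *Adamts17* reached 1.02 TPM in LrpprcWT replicate 1 and was at 0.271, 0.0854 and 0.0459 TPM with LrpprcP27A, below all LrpprcWT muscles. *Adamtsl1* reached 1.28 TPM in LrpprcWT replicate 1 and *Adamtsl2* 1.085 TPM in LrpprcWT replicate 3. For both of these, and for *Adam1a*, the groups overlapped.

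**Figure D4:**
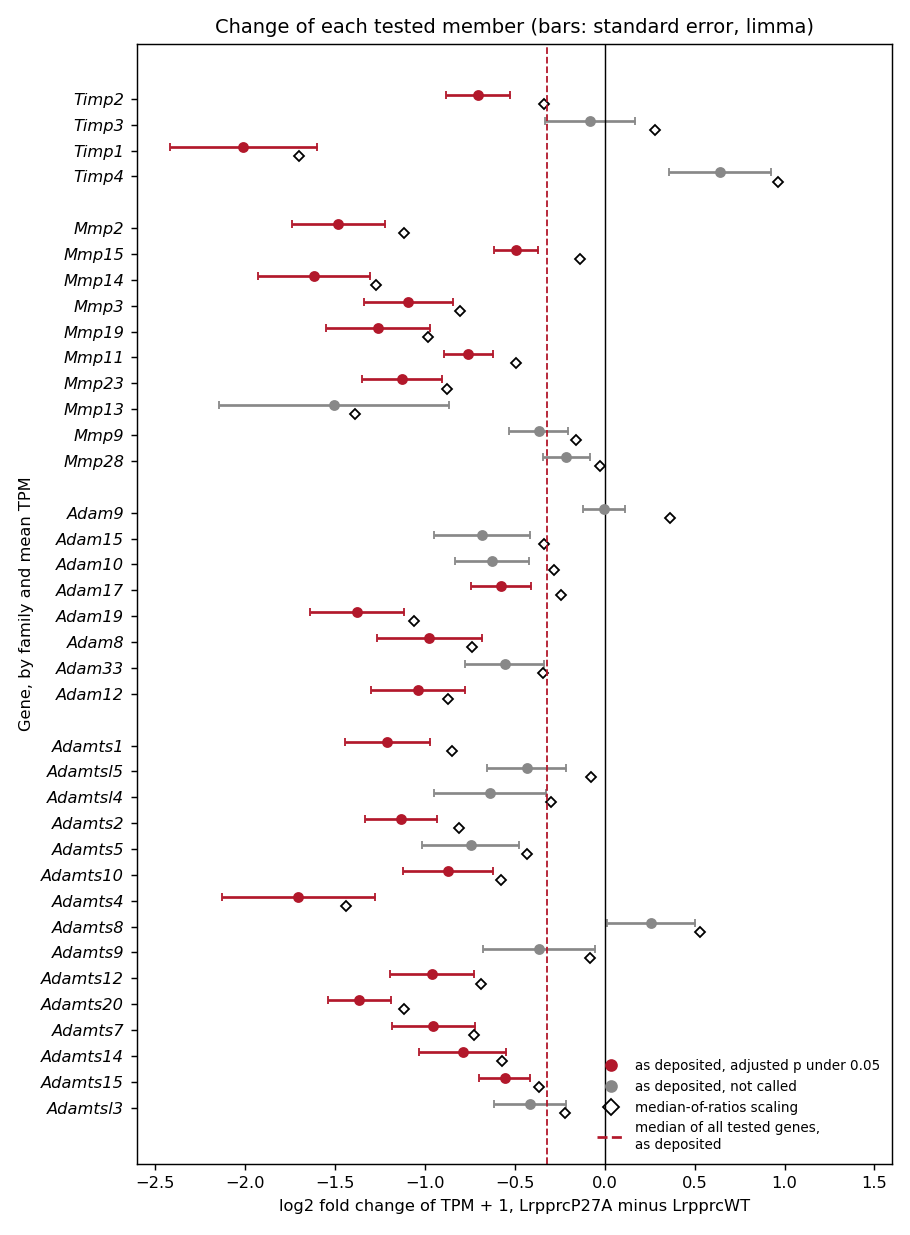
Log2 fold change of TPM + 1 (LrpprcP27A minus LrpprcWT) of the 37 tested genes, with bars for the standard error in limma (red, adjusted p under 0.05; grey, not called) and open diamonds for median-of-ratios scaling. On the deposited scale 35 of 37 lie below 0 and 32 lie below the dashed line, the median of all tested genes at -0.32.

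The balance of an enzyme and its inhibitor was compared as the log2 ratio of their TPM within a library, which no scaling of the libraries alters. In the 8 pairs chosen, ratios to *Timp2* and *Timp3* were lower with LrpprcP27A, and ratios to *Timp1* were higher. These directions follow from the fold changes of the single genes given above. *Mmp15* and *Adam9*, whose fold changes were less negative than that of *Timp2*, were not among the enzymes chosen. The ratio of *Mmp2* to *Timp2* was 0.38, 0.10 and 0.08 with LrpprcWT and -0.38, -0.77 and -0.69 with LrpprcP27A, a difference of -0.79. The ratio of *Mmp14* to *Timp2* was -1.73 ± 0.25 (SD, n = 3) with LrpprcWT and -2.77 ± 0.44 with LrpprcP27A, a difference of -1.04. Against *Timp3* the differences were -0.56 for *Adam17*, -0.82 for *Adamts5* and -1.17 for *Adamts1*. Against *Timp1*, whose log2 fold change was more negative than those of these enzymes, the differences were 1.72 for *Mmp9*, 1.72 for *Adam10* and 0.97 for *Mmp3*.

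In 7 of the 8 pairs the groups did not overlap, and these reached the smallest p that 3 against 3 allow (exact permutation test, two-sided, p = 0.1, adjusted over the 8 pairs 0.114). For *Mmp3* to *Timp1* the groups overlapped (exact permutation test, p = 0.2, adjusted 0.2). All 8 differences had the same direction in all 3 pairs of muscles (exact sign flips, p = 0.25, the smallest that 3 pairs allow). These exact tests therefore cannot reach 0.05 for a single ratio, and ratios that share an inhibitor are not independent. The share of other gene pairs without overlap was not computed, so the 7 of 8 has no background.

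**Figure D5:**
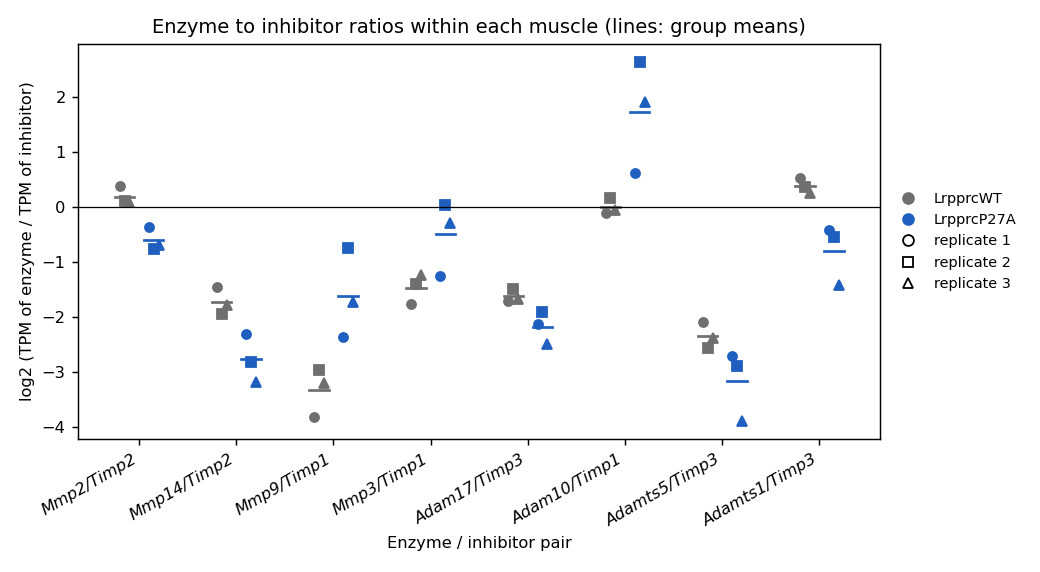
Log2 ratio of enzyme TPM to inhibitor TPM in each muscle for 8 pairs (grey, LrpprcWT; blue, LrpprcP27A; marker shape, replicate; lines, group means). Ratios to *Timp2* and *Timp3* sit lower with LrpprcP27A and ratios to *Timp1* sit higher, and the groups overlap only for *Mmp3* to *Timp1*.

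The wider pathway was followed in lists of genes that activate or control these proteases, of related proteases and of substrates. Of 67 listed genes 66 were analysed here and 45 were tested. Of these, 24 were lower and 0 higher (0 also at an unadjusted p under 0.05 in limma), against 23.3% and 1.34% of all tested genes. With the block 37 were lower, where it called 48.4% of all genes lower. With median-of-ratios scaling 12 were lower and 1, *Serpine2*, was higher, against 6.03% and 5.25% of all genes. These counts moved with single libraries as the members did, and as the share of all genes did. They went from 0 without LrpprcWT replicate 3 (0.129% of all genes) to 37 without LrpprcWT replicate 2 (59.5%). They were 4 without LrpprcWT replicate 1 (2.51%), and 8 and 9 without LrpprcP27A replicates 2 and 3 (4.34% and 3.79%).

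Among activators and controls 5 of 19 tested (26.3%) were lower, a share close to the 23.3% of all tested genes. The median of their log2 fold changes was -0.49, where that of all tested genes was -0.32. With the block 14 were lower, against 48.4% of all genes. With median-of-ratios scaling 2 were lower and 1 was higher, against 6.03% and 5.25% of all genes. *Plat*, the tissue plasminogen activator, *Tfpi2*, an inhibitor of serine proteases, and *Lrp1*, a receptor that clears proteases, had fold changes of -1.01, -1.06 and -0.85 (adjusted p = 0.0195, 0.0260 and 0.0305 in limma, and 0.0356, 0.0480 and 0.0929 with median-of-ratios scaling). *Tspan14*, a partner of Adam10, was also lower (-0.54 ± 0.15, adjusted p = 0.0385 in limma, and 0.149 with median-of-ratios scaling). *Plaur*, the urokinase receptor, was not called without the block (-0.88 ± 0.35, adjusted p = 0.0868 in limma, and 0.000149 with the block).

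Of the other metzincins and their enhancers 2 of 3 tested were lower, against 23.3% of all tested genes. *Bmp1*, the procollagen C-proteinase, had 14.8, 8.13 and 12.1 TPM with LrpprcWT and 6.59, 3.78 and 5.10 TPM with LrpprcP27A (log2 fold change -1.03 ± 0.23, adjusted p = 0.0247 in limma, and 0.0520 with median-of-ratios scaling). Its enhancer *Pcolce* fell by 1.26 on the log2 scale (adjusted p = 0.0160 in limma), whereas *Pcolce2* had a fold change of 0.29 ± 0.19 and was not called (adjusted p = 0.237). Of the substrates 17 of 23 tested were lower, with a median of -1.10, against 23.3% of all tested genes. With median-of-ratios scaling 9 were lower, against 6.03% of all genes. The fibrillar collagen genes *Col1a1*, *Col3a1* and *Col1a2* had log2 fold changes of -2.22, -2.14 and -1.88, and *Eln*, which encodes elastin, of -1.84 (adjusted p = 0.0124, 0.0116, 0.0153 and 0.0168 in limma). *Hspg2*, which encodes perlecan, was not called without the block (-0.63 ± 0.24, adjusted p = 0.0757 in limma, and 0.000506 with the block).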

How the data were processed

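RNA was measured in 6 TA muscles, 3 per group, with an Illumina kit that does not mark strand. The authors trimmed and aligned the reads with CLC Genomics Workbench (genome build GRCm39) and deposited TPM, which keep no depth, so no counting error can be given. Groups and replicate numbers came from the labels of the samples.

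log2(TPM + 1) was compared with limma 3.58.1 in R 4.3.3 (empirical Bayes with a trend) for genes whose mean TPM reached 1, fitted on the whole table with Benjamini-Hochberg adjustment. The study calls the muscles biological replicates and states that contralateral muscles were compared. Same-numbered libraries deviated together from their group means (correlations across genes of 0.36, 0.53 and 0.36), so the number was also used as a block. Libraries of different numbers were not compared in this way, so these correlations do not show that the number is the mouse. Empirical Bayes draws the variance of each gene toward that of all genes. A p with the block therefore does not rest on the agreement of the 3 pairs of that gene alone. Alternatives were a pseudocount of 0.1, no filter, a minimum mean TPM of 5, no trend, the Kruskal-Wallis test, the block, 3 other scalings, median-of-ratios scaling together with the block, and each library left out. The fit was tested on simulated data.

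Genes named were every *Timp*, the 5 most abundant tested *Mmp*, *Adam* and *Adamts* or *Adamtsl* genes, the 5 most negative and 5 most positive members, members called higher, members of the ratio pairs, and of each pathway list the 4 largest changes among called genes and the largest among the others. Members that were not tested but reached 1 TPM in any library were named too. *Adam8*, *Adam12*, *Adamts7*, *Adamts10*, *Adamts12*, *Adamts14*, *Adamts20*, *Mmp11*, *Mmp23*, *Serpine2* and *Tspan14* were named after their values were seen. The members and lists were chosen with earlier results of these data known. Overlapping genes and positions came from GENCODE for GRCm39, and promoters from RefSeq for GRCm38.p6. Some results of genes outside the members are not reported here.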

Additional observations from a re-analysis of the deposited data

How the results depend on the processing

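The number of members called depended on the processing, with 22 lower and 0 higher as reported. No filter gave 0 lower (31 at an unadjusted p under 0.05 in limma), where 42 of all 21450 genes were lower. The Kruskal-Wallis test gave 0 (24 unadjusted), and 0 of all 11611 genes, since it cannot reach a lower p with 3 against 3. A mean TPM of at least 5, which tests fewer members, gave 9 of 17, where 1560 of all 7082 genes were lower. Median-of-ratios scaling gave 12 lower and 1 higher, against 6.03% and 5.25% of all genes. Quantile normalization gave 8 lower (518 of all 11611 genes), and rescaling without mitochondrial genes and *Rn18s-rs5* gave 8 lower (662 of 11592). The replicate block gave 1 higher (2.69% of all genes), and both the block and median-of-ratios scaling 2 higher (13.4%). Leaving out each library gave 0 to 31 lower and 0 to 1 higher, while the share of all genes called lower went from 0.129% to 59.5%. Of the pathway genes 24 were lower and 0 higher as reported. No filter gave 1 lower, the Kruskal-Wallis test 0, and the replicate block, which uses the pairing, 37 (48.4% of all genes). Median-of-ratios scaling gave 12 lower and 1 higher, and both the block and this scaling 3 higher. Quantile normalization gave 9 lower and 1 higher, rescaling 10 lower, and leaving out each library 0 to 37 lower. The numbers over all genes were those given for the members, and quantile normalization called 493 of 11611 genes higher.

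The sign of *Timp3* turned to 0.28 with median-of-ratios scaling (with and without the block), 0.22 with quantile normalization and 0.10 with rescaling, and ranged from -0.31 to 0.13 without single libraries. *Adam9* turned to 0.36 (with and without the block), 0.29 and 0.18, and ranged from -0.084 to 0.058. Quantile normalization turned *Mmp28* to 0.13 and *Mmp9* to 0.022. The pseudocount and the trend changed no call among the 24 tested members named by rule. The causes were not tested. All 8 enzyme to inhibitor ratios kept their direction without each library in turn. Depth is unknown, so counting error at members near 1 TPM, such as *Mmp28* and *Adam12*, cannot be judged.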
